A study of Mus musculus with 17 samples.

Results

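Killer-cell lectin-like receptors are C-type lectin-like membrane proteins of natural killer (NK) cells and of cytotoxic T cells, encoded by the Klr genes. The 8 genes described here are Klrg1, Klrk1, Klrd1, Klrc1, Klrc2, Klre1, Klra7 and Klrb1c, taken by symbol from the 48709 genes listed in the count table. The table lists 30 Klr genes, of which 22 had at least 1 count, and the 8 genes held 1115 of the family's 1293 counts (86.2%). They were measured by RNA sequencing of CD8+ T cells in 17 libraries, namely 4 from APP-PS1 brain, 5 from WT brain, 3 from APP-PS1 blood and 5 from WT blood. APP-PS1 mice are a transgenic model of Alzheimer's disease that carries APP Swedish, a mutant mouse/human chimera of the amyloid precursor protein, together with PS1 dE9, a mutant human presenilin 1. The prion protein promoter directs both transgenes to neurons of the central nervous system. WT mice carried neither transgene and were the controls. The design text calls the mice aged, and the sources used here do not give ages by group. The APP-PS1 brain libraries came from 3 males and 1 female, those of APP-PS1 blood from 2 males and 1 female, and the WT libraries from females throughout. Sex and strain therefore cannot be told apart outside the female libraries. The design text names as many mice as there are libraries, and the labels pair no brain sample with a blood sample. The p-values measure how these samples spread, and part of that spread may be technical.

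Each receptor of this family either restrains or promotes killing when it meets its ligand on another cell. Klrd1 (CD94) is the shared partner chain that pairs with Klrc1 (NKG2A) into an inhibitory receptor and with Klrc2 (NKG2C) into an activating one, both of which read the non-classical class I molecule Qa-1, encoded by H2-T23. Klrk1 (NKG2D) is an activating receptor for stress-induced class I-like ligands, Klrg1 is an inhibitory receptor for cadherins and a marker of terminally differentiated effector CD8+ T cells, Klra7 (Ly49G) is an inhibitory Ly49 receptor for classical class I molecules, and Klrb1c (NK1.1) is an activating receptor used as an NK cell marker in mice. Klre1 is a partner chain that in rodents pairs with the Klri proteins.

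All 8 genes are protein coding and lie on chromosome 6 of GRCm38. Klrg1 lies apart from the others, from 122270596 to 122282882 on the minus strand. Klrb1c spans 128778485 to 128789215 on the minus strand, where it overlaps the predicted gene Gm44511. A tight run follows with Klre1 from 129577905 to 129585827 and Klrd1 from 129591782 to 129598775 on the plus strand, then Klrk1 from 129610323 to 129623864, Klrc2 from 129647496 to 129660689 and Klrc1 from 129666015 to 129678973 on the minus strand. Klra7 lies further on, from 130218605 to 130233322 on the minus strand, in the Ly49 cluster.

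Klrc1 and Klrc2 are shown first because their proteins oppose each other while parts of their transcripts are nearly the same. Sequences are from the GENCODE M21 transcripts, 5′ to 3′ on the minus strand, and capitals mark bases without an identical partner in a global alignment of the pair. The first 90 coding bases, at chr6:129678821-129678910 for Klrc1 and chr6:129660467-129660556 for Klrc2, had 60 of 90 bases identical (66.7%), with gaps allowed. They encode the start of the chain that faces the cytoplasm, where NKG2A differs from NKG2C in the motifs that carry inhibition.
Klrc1: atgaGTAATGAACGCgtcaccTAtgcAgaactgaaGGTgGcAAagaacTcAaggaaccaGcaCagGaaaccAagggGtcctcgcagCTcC
Klrc2: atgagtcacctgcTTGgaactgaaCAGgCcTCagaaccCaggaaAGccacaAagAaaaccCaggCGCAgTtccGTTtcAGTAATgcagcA
The next to last coding exon of each, 101 bases at chr6:129675300-129675400 for Klrc1 and chr6:129656812-129656912 for Klrc2, differed at 4 positions, with 97 of 101 bases identical.
Klrc1: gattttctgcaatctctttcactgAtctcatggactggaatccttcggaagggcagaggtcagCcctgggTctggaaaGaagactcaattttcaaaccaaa
Klrc2: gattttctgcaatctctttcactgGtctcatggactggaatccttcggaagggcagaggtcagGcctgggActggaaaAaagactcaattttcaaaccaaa
Of all 50-base words in the annotated Klrc1 transcripts, 36.6% also occurred in Klrc2, and 12.4% of Klrc2 words occurred in Klrc1. The sources used here give neither the read length nor the treatment of reads with several matches, so part of the counts of this pair may be split between them or lost. Klra7 shared 12.3% of its words with the pseudogene Klra13-ps, and the longest shared run within a coding exon, 83 bases at chr6:130218953-130219035 of Klra7, is given in full because the text returns to that pseudogene.
Klra7: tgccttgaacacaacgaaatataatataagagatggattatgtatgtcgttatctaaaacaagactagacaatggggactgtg
Klrb1c shared 17% of its words with other genes, most of them Gm44511, Klre1 shared 0.308%, and Klrg1, Klrk1 and Klrd1 shared 0.

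The libraries were shallow, with 27646 to 127707 counts in APP-PS1 brain, 51161 to 169903 in WT brain, 39055 to 46336 in APP-PS1 blood and 62604 to 214670 in WT blood. A single count was therefore worth 4.66 to 36.2 CPM (the counts-per-million unit, a share of the library total), depending on the library. Of 13539 genes with a count, 2366 passed the expression filter of about 117 CPM in at least 3 libraries and were tested with edgeR's quasi-likelihood test. Klrg1, Klrk1, Klrd1, Klrc1 and Klre1 passed, and Klrc2, Klra7 and Klrb1c, with 53, 25 and 10 counts in all, did not. Those 3 were compared by exact permutation tests of CPM, adjusted over 13539 genes. Cd8b1 averaged 999 CPM in APP-PS1 brain, 975 CPM in WT brain, 929.8 CPM in APP-PS1 blood and 1035 CPM in WT blood, and Cd4 had 0 counts in every library. Cd8a averaged 598 CPM in APP-PS1 brain, 718 CPM in WT brain, 335 CPM in APP-PS1 blood and 518 CPM in WT blood (0.62 over both strains, SE 0.22, edgeR adjusted p = 0.119). WT blood replicate 4, labelled female, had 1 count of Xist and 0 of the Y-linked genes, and the Klrg1 call is also given without it below. Brain was chopped, homogenized and cleared of myelin on Percoll, whereas blood went through red cell lysis, so tissue and processing cannot be told apart.

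Other cell types the samples could hold were followed through marker lists. Summed CPM of 5 red cell markers ran from 36.2 to 368 in APP-PS1 brain, from 156 to 873 in WT brain, from 2970 to 8071 in APP-PS1 blood and from 2152 to 9967 in WT blood, so both blood groups stood above both brain groups. The 4 tested haemoglobin genes were called lower in brain over both strains (log2 fold changes from -4.49 to -4.09, edgeR adjusted p of at most 0.000665), and the part of red cell RNA in the receptor results was not tested. Of 12 NK cell markers, Ncr1 and Fcgr3 had 0 counts in all libraries. The NK list summed to 398 to 767 CPM in APP-PS1 brain, 508 to 918 in WT brain, 195 to 302 in APP-PS1 blood and 208 to 719.6 in WT blood, carried mostly by Xcl1, Il2rb and Eomes, which CD8+ T cells also express. Of the NK markers Tyrobp and Fcer1g, adaptor chains of NK receptors, 9 of 13 and 3 of 3 counts lay in WT blood replicate 2. Lyz2, of the myeloid list, had 11 counts in 2 WT blood libraries. Which cells carried the Tyrobp and Fcer1g counts was not tested. B cell markers summed to 53.3 to 574 CPM in APP-PS1 brain, 40.8 to 97.7 in WT brain, 146 to 302 in APP-PS1 blood and 108 to 419 in WT blood, and Igkc was called lower in WT brain than in WT blood (-2.12, edgeR adjusted p = 0.0307), a change that differed between strains (5.56, adjusted p = 0.0104). Gamma-delta and innate-like T cell markers summed to 173 to 594 CPM, and 0 of their 2 tested genes were called in any comparison. The defining genes Trdc and Zbtb16 were at 0. Myeloid markers summed to 182 to 511 CPM and brain cell markers to 0 to 196 CPM, with overlapping ranges in all groups. The 1 tested myeloid gene was not called, and 0 of the brain cell genes passed the filter.

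Klrd1 was the most abundant of the receptors per kilobase of all its annotated exons in every group. Per kilobase of exon it averaged 104 ± 43.9 CPM in APP-PS1 brain (SD, n = 4), 147 ± 28.1 in WT brain (n = 5), 228 ± 86.0 in APP-PS1 blood (n = 3) and 209 ± 72.6 in WT blood (n = 5). Klrg1, Klrc1, Klrk1 and Klre1 lay between 9.14 and 97.0 CPM per kilobase in the group means. Klrc2, Klra7 and Klrb1c were at or under 31.7 CPM per kilobase in every group. The exon length was 1.28 kb for Klrd1 and 7.18 kb for Klrk1, and the transcripts in use were not measured. Without length, mean Klrk1 was above Klrd1 in WT brain (203 against 189 CPM) and WT blood (273 against 267 CPM). Mean Klrd1 was above Klrk1 in APP-PS1 brain (133 against 101 CPM) and APP-PS1 blood (293 against 161 CPM). By summed counts, Klrd1 and Klrk1 together made up more than any other pair of genes in each group, as the plot of the family's makeup shows.

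**Figure D1:**
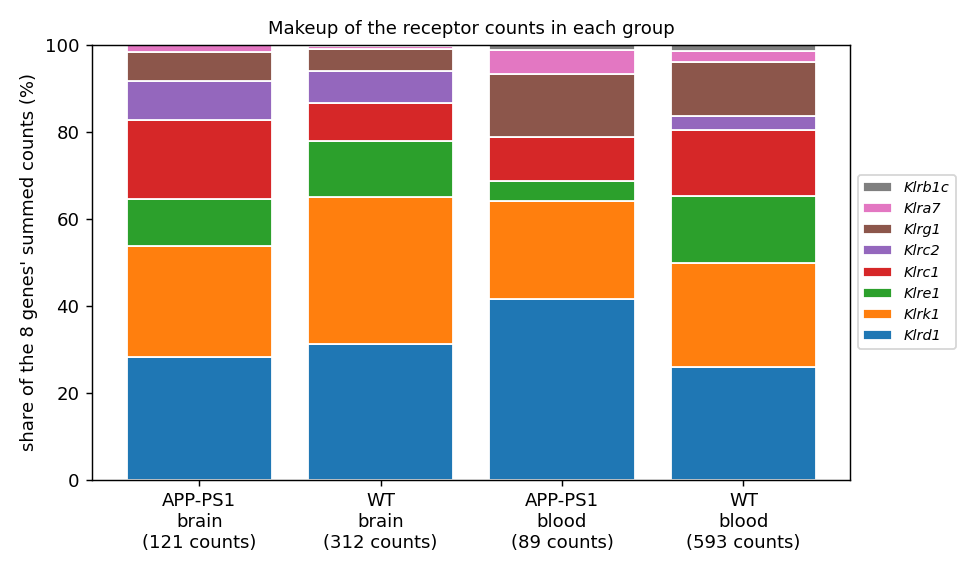
Share of the summed counts of the 8 receptor genes (percent, vertical axis) held by each gene in each group, with the number of counts under each bar. Klrd1 held 28.1% in APP-PS1 brain, 31.1% in WT brain, 41.6% in APP-PS1 blood and 26.0% in WT blood, and the Klrg1 segment was 6.61% and 5.13% in the brain groups and 14.6% and 12.3% in the blood groups. Klrk1 held 25.6% in APP-PS1 brain, 34.0% in WT brain, 22.5% in APP-PS1 blood and 23.8% in WT blood. Shares are of counts, not per length, and rest on as few as 89 counts.

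Summed over the 8 genes, the receptors reached 258 to 564 CPM in APP-PS1 brain, 529.7 to 684 CPM in WT brain, 626 to 803 CPM in APP-PS1 blood and 661 to 1271 CPM in WT blood. All 4 APP-PS1 brain libraries lay below all 3 APP-PS1 blood libraries, and WT blood replicate 1 alone kept the WT ranges overlapping. This sum is a description without a test. In bulk libraries fewer cells that carry a receptor and less of its RNA per cell cannot be told apart, and this holds for every gene below.

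**Figure D2:**
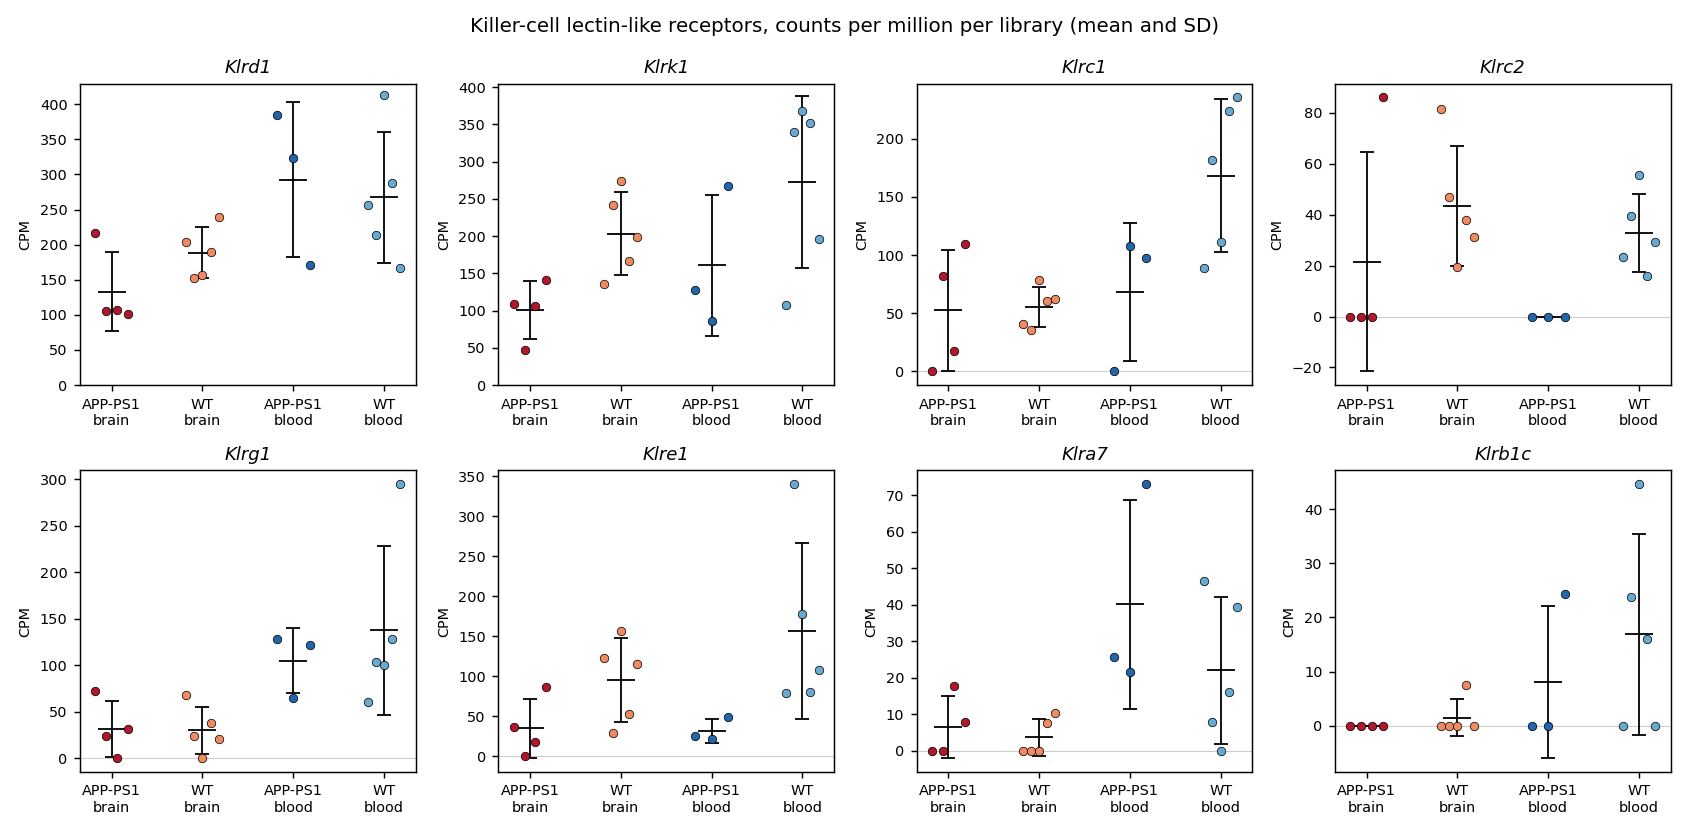
Counts-per-million values (CPM, vertical axis) of the 8 receptor genes, with a point for each library and the mean and SD of each group (4 APP-PS1 brain, 5 WT brain, 3 APP-PS1 blood and 5 WT blood libraries). SD bars can reach below 0, which CPM cannot. Klrg1 was 72.3 CPM or lower in all brain libraries and 60.6 CPM or higher in all blood libraries, and Klrc2 was at 0 in all APP-PS1 libraries except APP-PS1 brain replicate 4, at 86.1 CPM.

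Klrg1, the inhibitory receptor of late effector cells, was lower in brain than in blood. Klrg1 had 72.3, 23.4, 0 and 31.3 CPM in APP-PS1 brain, against 128, 64.7 and 122 CPM in APP-PS1 blood. It had 68.1, 23.5, 0, 37.9 and 20.9 CPM in WT brain, against 60.6, 103, 100.3, 128 and 295 CPM in WT blood. In each strain a single brain library, replicate 1, reached into the range of blood, and WT blood replicate 5 stood far above the other blood libraries. Averaged over both strains with equal weight, Klrg1 was called lower in brain, with a log2 fold change of -2.02 and an SE of 0.56 (edgeR quasi-likelihood test, Benjamini-Hochberg adjusted p = 0.0314 over 2366 genes). It was the 1 of 5 tested receptors called in this contrast, in which 2.62% of all tested genes were called. Klrg1 reached the 117 CPM of the expression filter in blood libraries alone, so it entered this test through the tissue where it is high.

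The call of Klrg1 was narrow. It held with RLE size factors, DESeq2 (adjusted p = 0.00869), a non-robust fit and sex as a term, and ended with voom (adjusted p = 0.0945), with no filter (0.0852), with a filter of 5 CPM in 3 libraries (0.0674) and with female libraries only (0.284), although the log2 fold change stayed between -2.07 and -1.87. It also ended without WT blood replicate 5 (-1.77, adjusted p = 0.123), without APP-PS1 blood replicate 1 or 3, without APP-PS1 brain replicate 2 or 3 or without WT brain replicate 2 (adjusted p from 0.0514 to 0.0735 for these 5). Without WT blood replicate 4 it was -2.03 (adjusted p = 0.0425). Within strains the log2 fold change was -1.86 in APP-PS1 mice (SE 0.91, adjusted p = 0.454) and -2.17 in WT mice (SE 0.65, adjusted p = 0.121), and DESeq2 called the WT change (-2.21, adjusted p = 0.0447). Pooled over libraries, Klrg1 reads numbered 8 in APP-PS1 brain, against 13 in APP-PS1 blood, a ratio of 0.262 (95% exact interval 0.0942 to 0.682), and 16 in WT brain and 73 in WT blood, a ratio of 0.250 (0.136 to 0.433). These intervals cover counting error only. The change did not pass a test of difference between strains (0.31, SE 1.18, adjusted p = 0.999). APP-PS1 against WT gave -0.19 in brain (SE 0.84, adjusted p = 0.999) and -0.50 in blood (SE 0.75, adjusted p = 0.901).

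Over the 17 libraries the tested genes most like Klrg1 were Hbb-bt (Pearson r = 0.789), Hba-a2 (0.783) and Klf2 (0.760), the haemoglobins of red cells and a transcription factor of recirculating T cells. These correlations span tissues and depths that the libraries share, and are given as a description. In WT blood, replicates 1 to 5 had red cell sums of 2772, 9608, 2152, 9967 and 8142 CPM beside the Klrg1 values given above. The replicates with the lowest sums, 1 and 3, also had the lowest Klrg1, though replicate 3 (100.3 CPM) was close to replicate 2 (103 CPM). The highest Klrg1 and the highest sum lay in different libraries. In APP-PS1 blood, replicates 1 to 3 had sums of 2970, 8071 and 7056 CPM beside Klrg1 of 128, 64.7 and 122 CPM. There the lowest sum lay with the highest Klrg1 and the highest sum with the lowest Klrg1. The part of red cell RNA was not tested. Of 11 genes known from Klrg1-high effector cells, 6 were tested. S1pr1, the receptor that guides lymphocytes out of tissue, was called lower over both strains (-2.79, SE 0.78, adjusted p = 0.0333), whereas the integrin chain Itgb1 was called higher (1.01, SE 0.26, adjusted p = 0.0174). S1pr1 reached the 117 CPM of the expression filter in WT blood libraries alone, as did Prf1, another of the 6. Both therefore entered the test through the group where they are high. The median of the 6 genes was -0.23, beside 0.03 over all genes tested. The genes of this list below the filter are not in that median. Of the 6, 3 had values above 0 and 3 below. Cdh1, which encodes E-cadherin, a Klrg1 ligand, was singled out after its values were seen. Cdh1 reads numbered 18 in APP-PS1 brain, against 0 in APP-PS1 blood, a level 2.56-fold higher when 0 is replaced by 3 counts per group. In WT mice they numbered 14 in brain, against 0 in blood, which is 5.32-fold higher on the same floor (exact permutation p = 0.0476, two-sided, adjusted p = 1). Both ratios take the brain counts as exact, so neither is a lower bound.

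Klrd1, the CD94 chain, was present in all libraries. Klrd1 had 217, 105, 107 and 102 CPM in APP-PS1 brain, against 384, 324 and 170.3 CPM in APP-PS1 blood. It had 204, 153, 156, 189.7 and 240.0 CPM in WT brain, against 256, 214, 413, 288 and 167 CPM in WT blood. In APP-PS1 mice only brain replicate 1, a library of 27646 counts in which Klrd1 had 6 counts, reached into the blood range, and in WT mice the ranges overlapped widely. The log2 fold change was -1.27 in APP-PS1 mice (SE 0.47, unadjusted p = 0.00945, adjusted p = 0.258), -0.55 in WT mice (SE 0.34, adjusted p = 0.761) and -0.91 over both strains (SE 0.29, adjusted p = 0.0773, all by edgeR). The value over both strains passed without APP-PS1 blood replicate 3 (-1.05, adjusted p = 0.0479) and when APP-PS1 brain replicate 1 was left out (-1.01, adjusted p = 0.0479), and stayed between -1.05 and -0.81 without any single library. APP-PS1 against WT gave -0.68 in brain (SE 0.41, adjusted p = 0.999) and 0.04 in blood (SE 0.41, adjusted p = 0.986). Genes most like Klrd1 over the 17 libraries were Emb (r = 0.836), Fam65b (0.776) and Klf3 (0.756).

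Klrc1, the inhibitory NKG2A partner of Klrd1, separated WT brain from WT blood. Klrc1 had 40.8, 35.3, 78.2, 60.7 and 62.6 CPM in WT brain, against 88.5, 182, 111, 224 and 236 CPM in WT blood. Every WT brain library lay below every WT blood library, as was so in either direction for 0.923% of the 13539 genes with a count. The exact two-sided permutation p was 0.00794, the smallest that 5 against 5 libraries allow, with an adjusted p of 0.860 over those genes. By edgeR the log2 fold change was -1.68 (SE 0.55, unadjusted p = 0.00369, adjusted p = 0.194), and it stayed between -1.86 and -1.52 without any single library. Klrc1 reached the 117 CPM of the expression filter in WT blood libraries alone, so it entered the edgeR test through the group where it is high.

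In APP-PS1 mice Klrc1 had 0, 82.0, 17.8 and 109.6 CPM in brain, against 0, 108 and 97.3 CPM in blood. The ranges coincided, with a log2 fold change of -0.13 (SE 0.81, edgeR adjusted p = 0.970) whose sign changed with several alternatives. The difference of the brain against blood change between strains was 1.54 (SE 0.97) and did not pass (adjusted p = 0.945), and over both strains the value was -0.90 (SE 0.49, adjusted p = 0.439). For Klrc1, APP-PS1 against WT gave 0.25 in brain (SE 0.63, adjusted p = 0.999) and -1.30 in blood (SE 0.72, adjusted p = 0.679). Genes most like Klrc1 over the 17 libraries were Cd53 (r = 0.846), Psmb10 (0.820) and Pycard (0.803).

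Klrc2, the activating NKG2C chain, overlapped between WT brain and WT blood. Klrc2 had 81.7, 47.1, 19.5, 37.9 and 31.3 CPM in WT brain, against 23.3, 39.5, 55.7, 16 and 29.5 CPM in WT blood, with the highest library in brain and the lowest in blood (exact two-sided permutation p = 0.460). Of the summed counts of Klrc1 and Klrc2, Klrc2 made up 46.0% in WT brain (23 of 50 counts, 95% exact Clopper-Pearson interval 31.8 to 60.7%) and 17.4% in WT blood (19 of 109 counts, 10.8 to 25.9%). These intervals pool the libraries and cover counting error only. By library this share ran from 20.0 to 66.7% in WT brain and from 6.67 to 33.3% in WT blood, so the groups overlapped. It was computed after the values of both genes were seen, has no test, and rests on a pair of genes that share sequence.

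In APP-PS1 mice Klrc2 was found in a single library. APP-PS1 brain replicate 4, the 1 female library of its group and its deepest, had 11 counts of Klrc2, or 86.1 CPM, and the other 3 brain libraries had 0. All 3 APP-PS1 blood libraries had 0, against 1 to 5 counts in each of the 5 WT blood libraries. The count of 0 in 126493 counts of APP-PS1 blood allows up to 23.7 CPM, a floor of 3 counts. Klrc2 in WT blood, at 31.9 CPM over pooled counts, was 1.35-fold that floor. This ratio takes the 19 WT counts as exact, so it is not a lower bound on the difference. The exact two-sided permutation p was 0.0357 (adjusted p = 1), and groups that did not overlap made up 3.2% of all genes in this comparison. The female APP-PS1 blood library was among those at 0, with 41102 counts in all.

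Klrk1, the activating NKG2D receptor, was found in all libraries. Klrk1 had 109, 46.8, 107 and 141 CPM in APP-PS1 brain, against 136, 241, 274, 167 and 198 CPM in WT brain. The groups met only where APP-PS1 brain replicate 4 (141 CPM), the female library, passed WT brain replicate 1 (136 CPM). The log2 fold change was -1.02 (SE 0.45, unadjusted p = 0.0294, adjusted p = 0.999 by edgeR), and the exact two-sided permutation p was 0.0238 (adjusted p = 1). In this comparison 0 of the 8 receptors had groups without overlap, beside 0.953% of all genes. With sex as a term the value was -0.36, and with female libraries only, which leave 1 APP-PS1 brain library, it was -0.46. The WT libraries were all female, so the sex term rests on the APP-PS1 libraries alone. In blood, Klrk1 had 128, 86.3 and 268 CPM in APP-PS1 mice, against 107, 340.0, 368, 351 and 196 CPM in WT mice (-0.83, SE 0.50, adjusted p = 0.715). Brain against blood gave -0.65 in APP-PS1 mice (SE 0.57, adjusted p = 0.757) and -0.46 in WT mice (SE 0.37, adjusted p = 0.857), and -0.55 over both strains (SE 0.34, adjusted p = 0.513).

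Klre1, the partner chain of the Klri proteins, was the gene most like Klrk1 (r = 0.751 over 17 libraries), followed by Calm2 (0.696) and Sept11 (0.678). Its own nearest genes after Klrk1 were 0610012G03Rik (0.713) and Fmnl1 (0.680). Klre1 had 25.6, 21.6 and 48.7 CPM in APP-PS1 blood, against 79.2, 340.0, 178, 79.9 and 108 CPM in WT blood. The groups did not overlap, as was so in either direction for 3.2% of the 13539 genes with a count. APP-PS1 blood rested on 4 counts against 92, a ratio of 0.205 over pooled counts (95% exact interval 0.0546 to 0.542, counting error only). The log2 fold change was -2.36 (SE 0.86, unadjusted p = 0.00842, adjusted p = 0.429 by edgeR), and the exact two-sided permutation p was 0.0893. Klre1 reached the 117 CPM of the expression filter in WT libraries alone, so it entered the edgeR test through the strain where it is high. WT blood replicate 2, the library that held 9 counts of Tyrobp and 3 of Fcer1g, had the highest Klre1, and without it the log2 fold change was -1.85 (adjusted p = 0.703). Which cells carried those Tyrobp and Fcer1g counts was not tested. With sex as a term the Klre1 log2 fold change was -1.21, and with female libraries only, which leave 1 APP-PS1 blood library, it was -1.75.

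In brain Klre1 had 36.2, 0, 17.8 and 86.1 CPM in APP-PS1 mice, against 122, 29.4, 156, 53.1 and 115 CPM in WT mice. The ranges overlapped, chiefly through APP-PS1 brain replicate 4, and the log2 fold change was -1.16 (SE 0.70, adjusted p = 0.999). Brain against blood gave 0.31 in APP-PS1 mice (SE 1.01, adjusted p = 0.95), which turned to -1.27 without APP-PS1 brain replicate 4, and -0.89 in WT mice (SE 0.55, adjusted p = 0.761). Over both strains it was -0.29 (SE 0.61, adjusted p = 0.914).

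Klra7 and Klrb1c, the Ly49G and NK1.1 genes, were rare. Klra7 reads numbered 2 in APP-PS1 brain, against 5 in APP-PS1 blood, at 0, 0, 17.8 and 7.83 CPM against 25.6, 21.6 and 73.0 CPM. All 4 brain libraries lay below all 3 blood libraries (exact two-sided permutation p = 0.0286, the smallest possible, adjusted p = 1), as was so in either direction for 3.58% of genes. The counts were 0, 0, 1 and 1 against 1, 1 and 3. Single counts in shallow blood libraries thus stood above single counts in deeper brain libraries. In WT mice Klra7 had 2 counts in brain and 16 in blood, 10 of them in WT blood replicate 1 (exact p = 0.0952). Klrb1c had 0 counts in APP-PS1 brain, 1 in WT brain, 1 in APP-PS1 blood and 8 in WT blood. The count of 0 in APP-PS1 brain allows up to 10.1 CPM.

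In all, 0 of the 5 tested receptors were called in APP-PS1 brain against APP-PS1 blood, where edgeR called 0.549% of all tested genes, and 2 of the 5 had an unadjusted p under 0.05, as did 10.7% of all tested genes. In WT brain against WT blood edgeR called 0 of the 5 beside 0.761% of all genes, with an unadjusted p under 0.05 for 2 of the 5 and for 7.27% of all genes, and DESeq2 called 1, Klrg1. APP-PS1 brain against WT brain gave 0 of 5 beside 0% of all genes, with an unadjusted p under 0.05 for 1, Klrk1, and for 4.14% of all genes. APP-PS1 blood against WT blood gave 0 of 5 beside 0.0423% of all genes, with an unadjusted p under 0.05 for 1, Klre1, and for 8.03% of all genes. Voom called 0 of the 5 in all these comparisons, and DESeq2 called 0 in all except WT brain against WT blood. The difference between strains in brain against blood gave 0 of 5 beside 0.0423% of all genes, with an unadjusted p under 0.05 for 0 and for 4.95% of all genes. Over the 5 tested receptors the median log2 fold change was -0.65 for APP-PS1 brain against APP-PS1 blood, -0.89 for WT brain against WT blood, -0.68 for APP-PS1 brain against WT brain and -0.83 for APP-PS1 blood against WT blood, beside medians of 0.03, 0.02, -0.04 and -0.05 over all genes tested. With the filter of 5 CPM in 3 libraries all 8 receptors were tested and edgeR called 0 of them in each comparison. The share of all genes called was then 0.157% for APP-PS1 brain against APP-PS1 blood, 0.167% for WT brain against WT blood, 0% for APP-PS1 brain against WT brain, 0.0689% for APP-PS1 blood against WT blood, 0.541% over both strains and 0.00984% for the difference between strains. An unadjusted p under 0.05 was found in the same order for 2, 2, 1, 4, 5 and 0 of the 8 receptors, and for 8.56%, 7.89%, 6.38%, 7.49%, 10.7% and 6.58% of all genes. These comparisons share libraries pairwise, and the 3 receptors below the filter are not in the medians. Klrg1 and Klrc1 passed the filter through blood libraries alone, and Klrc1 and Klre1 through WT libraries alone. The medians of brain against blood and of APP-PS1 against WT therefore lean to lower values by construction and support nothing. The 8 receptors were also chosen with earlier results of these data known. Their numbers with an unadjusted p under 0.05 therefore cannot be read against the shares of all genes, and support nothing either.

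**Figure D3:**
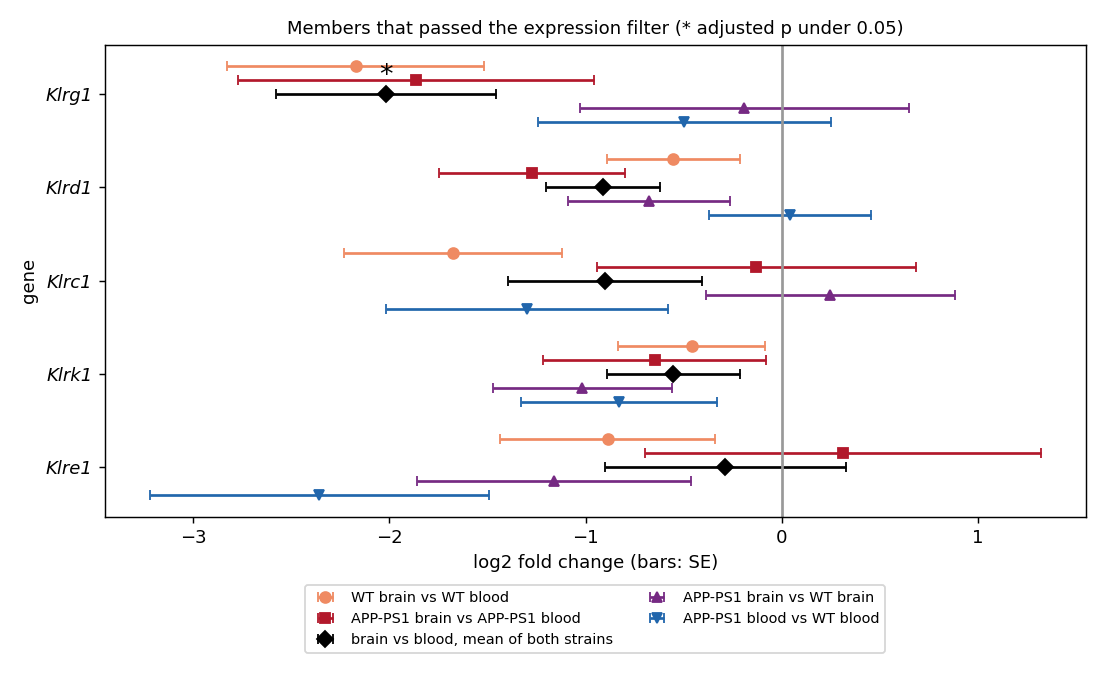
Log2 fold changes (horizontal axis, bars are SE) of the 5 receptor genes that passed the expression filter, from edgeR, for brain against blood in each strain, the mean of both strains and APP-PS1 against WT in each tissue. The star marks an adjusted p under 0.05, held by Klrg1 in the mean of both strains (-2.02). Most values lie left of 0, but Klrg1, Klrc1 and Klre1 passed the filter only through groups where they are high. Most bars of a gene overlap.

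Among the 22 other Klr genes, 5 had at least 10 counts, 9 had 1 to 9 counts and 8 had 0. None of the 22 passed the expression filter. Klra13-ps, a transcribed Ly49 pseudogene at 130290878 to 130306428 on the minus strand of chromosome 6, was the most abundant with 75 counts. Klra13-ps had 0, 0, 17.8 and 0 CPM in APP-PS1 brain, against 51.2, 108 and 243 CPM in APP-PS1 blood, with no overlap (exact two-sided permutation p = 0.0286, the smallest possible, adjusted p = 1). Groups did not overlap in either direction for 3.58% of genes in this comparison. In WT mice Klra13-ps had 27.2, 17.7, 39.1, 7.59 and 10.4 CPM in brain, against 93.2, 63.3, 100.3, 159.7 and 9.82 CPM in blood, where replicate 5 lay within the brain range. With a filter of 5 CPM in 3 libraries, under which 10167 genes were tested and 0.541% were called over both strains, Klra13-ps had a log2 fold change of -3.4 and was called lower (SE 0.72, edgeR adjusted p = 0.00146). The value was -4.60 in APP-PS1 mice (adjusted p = 0.0735) and -2.20 in WT mice (adjusted p = 0.401), and neither passed. Over both strains the call held without each library in turn (-4.30 to -3.04), with the highest adjusted p, 0.0454, without APP-PS1 blood replicate 3. Klra13-ps shares 13.7% of its 50-base words with Klra7, whose run is printed above, so counts of the pair may be mixed.

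Klra3 (Ly49C), an inhibitory receptor for class I molecules, had 4 counts in APP-PS1 brain, 2 in WT brain, 4 in APP-PS1 blood and 17 in WT blood. WT brain held 0 to 13.6 CPM of it against 9.82 to 47.9 CPM in WT blood (exact two-sided permutation p = 0.0159, adjusted p = 0.972). Klra9 (Ly49I), another inhibitory Ly49 receptor, had 0 counts in APP-PS1 brain, 10 in WT brain, 0 in APP-PS1 blood and 14 in WT blood, but 9 of the 10 lay in WT brain replicate 4 and 9 of the 14 in WT blood replicate 2. Klrb1f, of the NKR-P1 receptors that bind Clec2 proteins, had 1 count in APP-PS1 brain, 11 in WT brain, 0 in APP-PS1 blood and 10 in WT blood, again uneven, with all 11 WT brain counts in replicates 2 and 3. Klri2, the partner of Klre1, had 2, 4, 1 and 3 counts in the same order. None of the 4 was called with the filter of 5 CPM in 3 libraries.

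**Figure D4:**
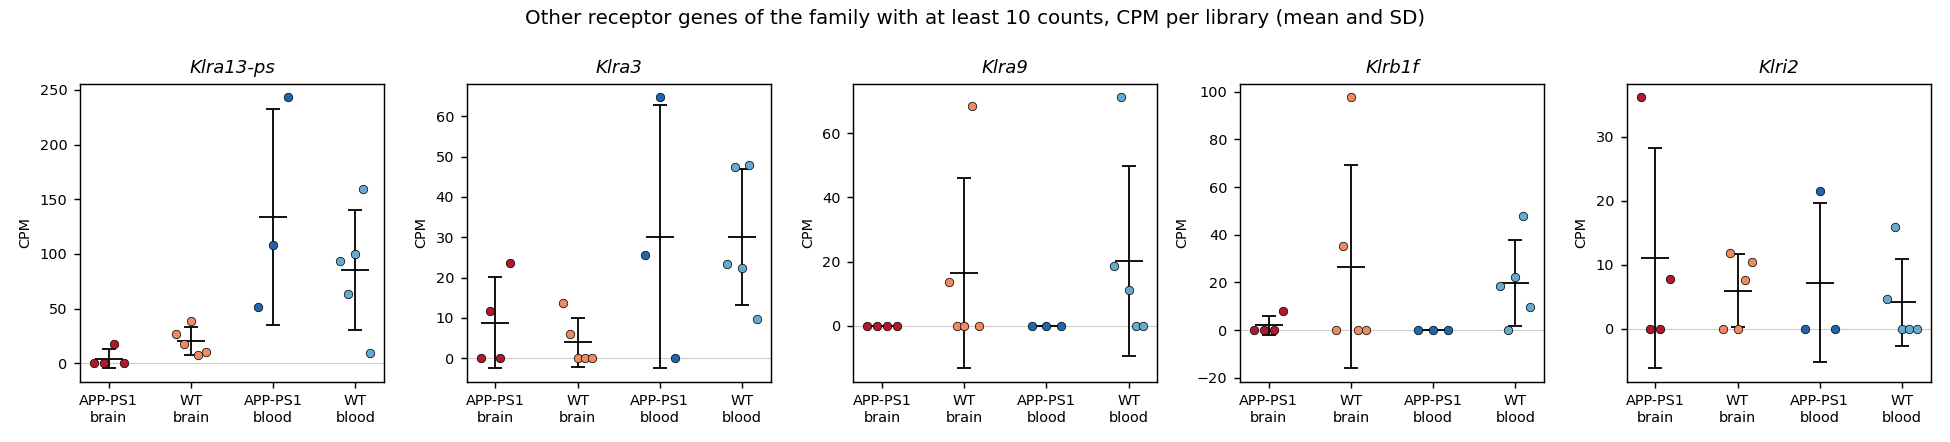
Counts-per-million values (CPM, vertical axis) of the 5 other Klr genes with at least 10 counts, with a point for each library and the mean and SD of each group, whose bars can reach below 0. Klra13-ps was 39.1 CPM or lower in all brain libraries and 51.2 CPM or higher in all blood libraries except WT blood replicate 5, at 9.82 CPM.

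None of the tested adaptor and ligand genes of the receptors was called. Of 18 genes of adaptors and proximal signalling, 10 were tested and 0 were called in any comparison, with a median log2 fold change of 0.00 over both strains. Hcst (DAP10), the adaptor that carries the signal of Klrk1, ranged from 468 to 799.9 CPM in APP-PS1 brain, from 490.0 to 876 in WT brain, from 414 to 734 in APP-PS1 blood and from 557 to 751 in WT blood, with overlap between all groups and a log2 fold change of 0.09 over both strains (SE 0.21, edgeR adjusted p = 0.926). The kinases Lck and Fyn had values of 0.02 and 0.28 (adjusted p = 0.982 and 0.762). Tyrobp (DAP12), the adaptor of activating NKG2C, had 13 counts in all libraries.

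Of 18 ligand genes looked up, 14 were matched in the table, 6 were tested and 0 were called in any comparison, with a median of 0.11 over both strains. B2m, H2-D1 and H2-K1, which encode the light chain and classical heavy chains of class I, had log2 fold changes of 0.07, 0.15 and 0.04 over both strains (adjusted p of at least 0.781). H2-T23, named for its role as the Qa-1 ligand of the CD94 receptors, averaged 718 ± 372 CPM in APP-PS1 brain, 561 ± 225 in WT brain, 353 ± 95.5 in APP-PS1 blood and 469 ± 98.0 in WT blood. Its value over both strains was 0.54 (SE 0.24, adjusted p = 0.282). Of the CD8 T cell markers, 9 were tested and Cd3g was called higher over both strains (0.65, SE 0.19, adjusted p = 0.0402), and Cd3e had a value of 0.51 (SE 0.22, adjusted p = 0.254). Cd8a, Trac and Trbc2 had values of 0.62, 0.35 and 0.05, whereas Cd3d, Cd247, Cd8b1 and Trbc1 had -0.08, -0.08, -0.03 and -0.43. Of the NK list, Xcl1, a chemokine, was called higher over both strains (2.23, SE 0.36, adjusted p = 2.06e-05).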

How the data were processed

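RNA sequencing of CD8+ T cells gave 1 deposited table of raw read counts per gene for 17 libraries. Per the submitters' processing notes, which name tools and builds without their roles, the authors used FastQC, Bowtie2 2.2.2, HTSeq 0.11.2, DESeq2 and GRCm38. The sources used here do not give read length, strand setting or the treatment of reads with several matches. No row without a gene was listed.

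Counts were fitted in R 4.3.3 with edgeR 4.0.16 (TMM factors, filterByExpr, robust quasi-likelihood fit, group means of all 17 libraries). Benjamini-Hochberg adjustment ran over the 2366 genes tested, with a threshold of 0.05. The filter kept genes above about 117 CPM in enough libraries. CPM used the total counts. Two-sided exact permutation tests of the difference in mean CPM covered all 13539 genes with a count. Alternatives were RLE factors, DESeq2 1.42.0, limma 3.58.1 voom with quality weights, other filters, a non-robust fit, fewer samples, sex as a term, female libraries, thinning to 27646 counts and leaving out each library. The scripts were tested on simulated data. Intervals are 95% exact intervals of counting error. Fold values against 0 counts use a floor of 3 counts over a group and take the other group's counts as exact. Sequences and coordinates came from GENCODE M21 on GRCm38, which matched 48349 of 48709 identifiers. Words of 50 bases were compared between annotated transcripts with Python 3.11.15.

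Depth was 27646 to 214670 counts per library, so genes under about 100 CPM rest on few counts. Within groups 29 library pairs were compared by chi-square, which gave 2.59 to 5.69 per degree of freedom, and 0 pairs were identical, so all libraries were kept. The receptors and gene lists were chosen with earlier results of these data known. Named genes were the 8 receptors, other Klr genes with at least 10 counts, called genes of each list or, where 0 were called, up to 3 tested genes with the highest mean CPM, and the 3 genes most correlated with each tested receptor. Further genes of the Klrg1-high effector and CD8 T cell lists were named beyond this rule.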

Additional observations from a re-analysis of the deposited data

Results flagged for a closer look

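Dixon's test at the 95% level was run on 37 groups of 4 or 5 libraries, and it marked 8 values, which lay in 6 libraries. The usual chance rate of about 5% of groups assumes normally distributed values. A group with counts in a single library is always marked, as was so for Klrc2, Klrb1c, Klra13-ps and Klrb1f below. The number of marks therefore cannot be read against that rate. Among the 8 receptors the test marked APP-PS1 brain replicate 4 for Klrc2 at 86.1 CPM, where the other 3 libraries were at 0. It marked APP-PS1 brain replicate 1, the shallowest library, for Klrd1 at 217 CPM, against 102 to 107 CPM in the others of its group. WT blood replicate 5 was marked for Klrg1 at 295 CPM, against 60.6 to 128 CPM in the others. WT brain replicate 4 was marked for Klrb1c at 7.59 CPM, which is a single count.

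Among the other Klr genes it marked WT brain replicate 4 for Klra9 at 68.3 CPM and WT blood replicate 2 for Klra9 at 71.2 CPM, each from 9 counts. APP-PS1 brain replicate 3 was marked for Klra13-ps at 17.8 CPM, and APP-PS1 brain replicate 4 for Klrb1f at 7.83 CPM, both single counts in groups otherwise at 0.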

How the results depend on the processing

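The number of receptors called over both strains was 1, and was 0 with voom, with no filter, with 5 CPM in 3 libraries, with female libraries only and after thinning, where Klrg1 was not among the 676 genes tested. Leaving out each library gave 0 to 2. WT brain against WT blood gave 0, and 1 with DESeq2. Leaving out each library gave 0 in every other comparison. None of the values that changed sign passed the threshold. For APP-PS1 brain against APP-PS1 blood, Klrc1 (-0.13) was 0.20 with voom, 0.038 with no filter, 0.046 with 5 CPM and 0.20 in females, and Klre1 (0.31) was -0.67 with voom. For APP-PS1 brain against WT brain, Klrg1 (-0.19) was 0.053 with sex as a term and 0.076 in females, and Klre1 (-1.16) was 0.030 in females. For APP-PS1 blood against WT blood, Klrg1 (-0.50) was 0.025 with voom, and Klrd1 (0.04) was -0.23 with no filter, -0.22 with 5 CPM, -0.40 with sex and -0.70 in females. The difference between strains was -0.17 with voom for Klrg1 (0.31) and 0.58 after thinning for Klrk1 (-0.19). The CPM difference of Klre1 between APP-PS1 brain and APP-PS1 blood (3.07) was -0.28 on the log2(CPM + 10) scale, and that of Klrg1 between APP-PS1 brain and WT brain (1.69) was -0.386 TMM-scaled and -0.012 on that log2 scale. The cause was not tested.

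Leaving out each library also changed signs. For APP-PS1 brain against APP-PS1 blood, Klrc1 ran from -0.73 to 0.41 and Klre1 from -1.27 to 0.76. For APP-PS1 brain against WT brain, Klrg1 ran from -0.51 to 0.20 and Klrc1 from -0.35 to 0.52. For APP-PS1 blood against WT blood, Klrg1 ran from -0.69 to 0.018 and Klrd1 from -0.11 to 0.31. Differences between strains ran from -0.19 to 0.70 for Klrg1, from -0.53 to 0.42 for Klrk1 and from -0.36 to 1.65 for Klre1. CPM differences between APP-PS1 brain and APP-PS1 blood ran from -50.3 to 3.68 for Klrc1 and from -13.97 to 14.7 for Klre1. Between APP-PS1 brain and WT brain they ran from -11.8 to 12.3 for Klrg1, from -22.3 to 14.3 for Klrc1 and from -0.994 to 4.93 for Klra7. Between APP-PS1 blood and WT blood they ran from -51.6 to 6.93 for Klrg1 and from -20.3 to 86.6 for Klrd1.

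Over all genes, the 62 calls over both strains were 38 with voom, 14 in females and 26 after thinning. The 18 calls of WT brain against WT blood were 10 with voom and 9 after thinning. The 13 of APP-PS1 brain against APP-PS1 blood were 21 with DESeq2, 7 with voom and 1 in females. The 1 of APP-PS1 blood against WT blood was 7 with 5 CPM, 5 with no filter, 3 with voom or only the groups compared, and 0 with sex, in females or after thinning. The 1 difference between strains was 0 with DESeq2, with voom, in females and after thinning. The fit with a filter of 5 CPM and each library left out was added after seeing the data. No paired analysis was possible because the labels pair no brain sample with a blood sample. Depth limits the 3 receptors below the filter, whose values rest on 53 counts or fewer.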
